A study of Panax ginseng with 12 samples.

Results

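Splicing factors are the proteins that cut introns out of nuclear pre-mRNA, and they were followed here in embryogenic calli of Panax ginseng kept in the cold. A gene of the deposited table was taken as a splicing factor when its Swiss-Prot description named a splicing factor, a pre-mRNA-splicing or pre-mRNA-processing protein, a small nuclear ribonucleoprotein or a serine/arginine-rich protein. This gave 156 of 44953 assembled genes, which matched 91 distinct Swiss-Prot entries, 103 of the genes having their best hit in Arabidopsis thaliana. Of the 156 genes, 155 passed the low filter of at least 1 TPM in at least 2 libraries. The gene that did not pass was a CLF1 homolog (TRINITY_DN18532_c1_g3), whose mean over the 12 libraries was 0.557 TPM. TPM is a relative level, scaled by the length of the transcript and the size of the library.

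The spliceosome is assembled on each intron from small nuclear ribonucleoprotein particles (snRNPs) made of RNA and protein. The U1 snRNP binds the 5′ splice site, U2AF and the U2 snRNP recognise the 3′ end of the intron and the branch site, and the U4/U6.U5 tri-snRNP then joins. The PRP19 complex and DEAH-box RNA helicases drive the rearrangements that make the spliceosome active and take it apart, and second-step factors such as SLU7 act in the joining of the exons. SR proteins bind exons and help to choose splice sites, and the minor spliceosome, with U11 and U12, removes a rare class of introns. Plants carry many SR proteins, and alternative splicing is known to respond to temperature in plants.

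The calli, masses of cultured cells able to form somatic embryos, were held in the cold at 5 °C or, as control, at 20 °C, and total RNA was sequenced on days 2, 4 and 6. Each temperature and day had 2 libraries, so there were 6 groups and 12 libraries, with 6 libraries at each temperature. The labels name no genotype, cultivar or age of the calli, and they do not say whether the libraries of a group came from separate cultures, so the p-values measure the spread between these libraries, which may be technical. Bulk RNA cannot tell fewer cells of a type from less RNA per cell.

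Of the embryogenic marker list, 11 tested genes were SERK, BBM or WOX homologs, genes of somatic embryo and stem cell identity, and no tested gene was named LEC1, LEC2, FUS3 or AGL15. The summed level of those 11 genes was 444.9 to 983.3 TPM in the control libraries and 440.2 to 672.9 TPM in the cold libraries. The sums depend heavily on a WOX8 homolog (TRINITY_DN28053_c1_g1), at 126 to 728 TPM in control and 195 to 438 TPM in cold libraries. Of the 11, a SERK1 homolog (TRINITY_DN26952_c0_g1) was the only one called lower in the cold, at 95.5 ± 12.1 TPM against 136 ± 22.9 TPM (SD, n = 6 each; limma adjusted p = 0.0467), and a SERK2 homolog (TRINITY_DN34592_c0_g2) the only one called higher, at 6.89 ± 1.55 TPM against 3.30 ± 1.94 TPM (limma adjusted p = 0.0398). The part of these markers in the results on splicing factors was not tested. The same word pattern also matched 9 LEC14B genes and 2 SUPPRESSOR OF ABI3-5 genes, which are not markers of embryogenic tissue and were set aside after their names were seen.

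A pair of cold libraries stood apart from the others. Cold day 2 replicate 3 had the lowest deposited total, 873298 TPM against 900400 to 929555 TPM in the other libraries, and the highest median, 8.59 TPM. Cold day 6 replicate 3 had a median correlation across all tested genes of 0.848 with the 6 control libraries and of 0.828 with the other 5 cold libraries, whereas each other cold library was nearer to the cold ones. Of the 32 called members described further on, 22 were still called when both were left out, and the adjusted p without them is given for the other ten.

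The splicing factors summed to 4922 ± 286 TPM in the control libraries and 4542 ± 358 TPM in the cold libraries (SD, n = 6 each), or 0.434% to 0.571% of all deposited TPM. The median member had 24.9 TPM, against 7.49 TPM over all genes tested and 12.8 TPM over those with a Swiss-Prot hit. The median residual SD between libraries of a group was 0.30 on the log2(TPM + 1) scale for splicing factors, against 0.382 for genes with a Swiss-Prot hit and 0.481 for all genes tested. Other annotation columns, which did not choose the members, carried a KEGG spliceosome entry for 142 of the 156 and a GO term naming the spliceosome for 133. An RNA recognition motif (Pfam RRM) was annotated in 43 and a GO term for nuclear speckles, the storage sites of SR proteins, in 30.

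Fewer splicing factors were higher in the cold than lower. For the mean of the 3 daily differences, 9 of 155 were called higher and 23 lower with limma at a Benjamini-Hochberg adjusted p under 0.05. Across all 44600 genes tested, 11.3% were called higher and 12% lower. The members' shares were 5.81% higher and 14.8% lower, so the higher share lay below the background. Every member has a Swiss-Prot hit, and among the 19751 tested genes with such a hit 10.7% were higher and 13.9% lower, so the lower share of the members was close to that of annotated genes. Of the members 101 lay below 0 and 54 above (34.8%), while 47.5% of all genes lay above 0. Below 0 lay 88 members after median ratio scaling and 102 after quantile normalization. The members' median log2 difference was -0.12, against -0.08 over genes with a hit and -0.05 over all genes. With median ratio scaling between libraries the medians of the members and of all genes were -0.07 and -0.003, and with quantile normalization -0.14 and -0.03. The members' median thus lay below that of all genes under each scaling. At least a 2-fold difference on the log2(TPM + 1) scale was found for 10 of the 23 lower and 3 of the 9 higher members.

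All 6 cold values lay below all 6 control values in 16 members (10.3%), against a background of 3.84%, and above them in 5 members (3.23%), against 3.27%. That background covers all genes tested, whose median residual SD was 0.48, against 0.30 for the members. Separate ranges depend on that spread, and the share among genes with a Swiss-Prot hit was not computed. Of the 32 called members, 20 had such separate values, and 31 had the same sign on all 3 days. The exception was RS2Z33, described with the SR proteins. The 32 were called on the mean of the 3 days in these same libraries. The 20 and the 31 therefore follow largely from that choice and are a description only. Leaving out single libraries changed the counts of higher and lower calls. Among higher calls, 1 was left without control day 4 replicate 2, control day 6 replicate 2, cold day 4 replicate 2 or cold day 6 replicate 2, 2 were left without control day 2 replicate 3 or cold day 4 replicate 1, and 4 when cold day 2 replicate 1 was omitted. Of the lower calls, 15 were made without cold day 4 replicate 2, and omitting cold day 6 replicate 2 left 13. With both cold libraries that stood apart left out, 3 were higher and 19 lower. In all, 13 of the 32 called members were called in each of the 12 fits that left out 1 library. Where an adjusted p without 1 library is given below, other omissions may lose the call as well.

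**Figure D1:**
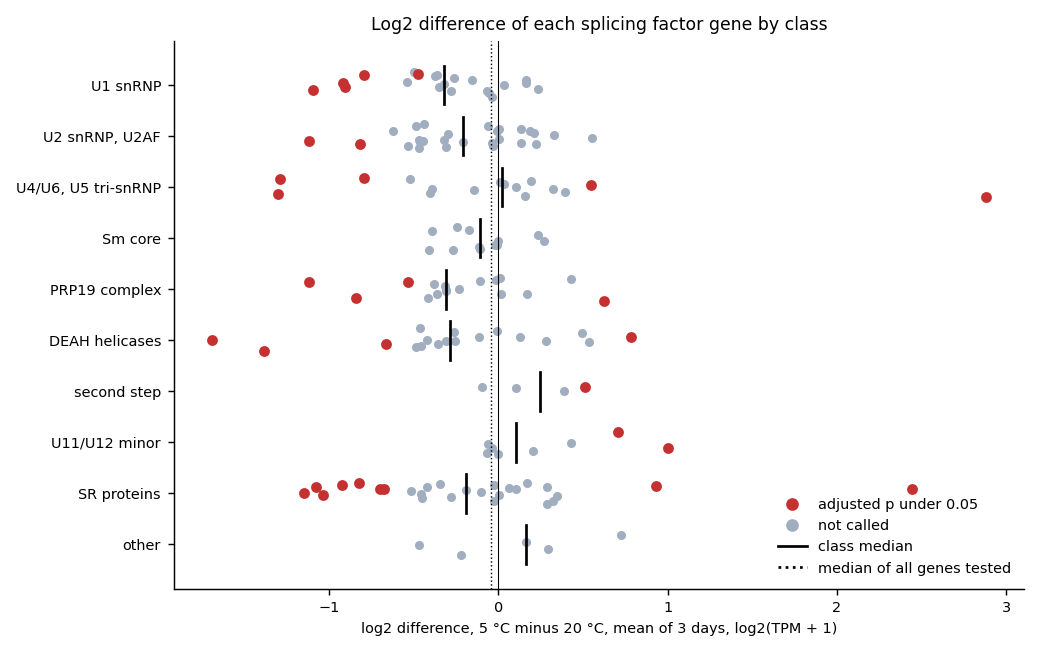
Log2 difference between 5 °C and 20 °C (mean of 3 days, log2(TPM + 1) scale, horizontal axis) of each of the 155 tested splicing factor genes, by class of protein (vertical axis, with random vertical jitter). Red points have an adjusted p under 0.05, black bars are class medians and the dotted line is the median of all genes tested; the 5 called U1 snRNP genes all lie left of 0 and a PRP31 gene lies farthest right, at 2.88.

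Factors of the U1 snRNP, which starts intron recognition, gave 5 lower calls and none higher among 21 tested genes, with a median log2 difference of -0.32. Calls in either direction made up 23.8% of the class, against 23.3% of all genes tested. On day 2 all 21 lay below 0 (also with median ratio scaling, and 20 of 21 with quantile normalization), on day 4 16 did and on day 6 15 did. Their summed level was 436 ± 43.3 TPM in control and 338 ± 43.7 TPM in cold libraries (SD, n = 6 each). The sums at 20 °C were 465 and 426 TPM on day 2, 418 and 395 TPM on day 4, and 404 and 510 TPM on day 6. At 5 °C they were 293 and 328 TPM on day 2, 336 and 300 TPM on day 4, and 361 and 412 TPM on day 6. Both cold libraries lay below both control libraries on days 2 and 4, and on day 6 the ranges overlapped.

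U1-70K (RNU1), the U1 protein that contacts SR proteins and the U1 RNA, was represented by 3 genes, and all 3 were lower. The longest (TRINITY_DN35050_c3_g1, 2276 bases) stood at 35.4 and 28.1 TPM on day 2, 40.9 and 31.8 TPM on day 4 and 28.7 and 38.3 TPM on day 6 at 20 °C. At 5 °C its levels were 11.6 and 16.5 TPM on day 2, 20.3 and 14.8 TPM on day 4, and 20.2 and 24.1 TPM on day 6. Every cold value was lower than every control value, and the log2 difference was -0.91 (SE 0.18, limma adjusted p = 0.00626), called in each fit without 1 library. The shorter TRINITY_DN14012_c0_g1 (376 bases) differed by -0.92 (SE 0.18, limma adjusted p = 0.00621), from a median of 35.4 TPM (25.7 to 41.3) to 16.2 TPM (13.5 to 26.6). It was also called on day 4 alone, where the difference was -1.17 (SE 0.31, limma adjusted p = 0.0439). The third gene, TRINITY_DN14012_c0_g2, chosen after its values were seen, differed by -0.80 (SE 0.21, limma adjusted p = 0.0198; 0.0636 without cold day 6 replicate 2). It comes from the same assembly component as the second, so they may be pieces of 1 transcript or share reads.

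The pre-mRNA-processing factor 39 homolog (prpf39, TRINITY_DN29979_c3_g4), whose yeast counterpart is a U1 snRNP protein, was the most abundant gene of the class. It had a median of 41.2 TPM (37.7 to 47.9) at 20 °C and 28.5 TPM (22.8 to 42.0) at 5 °C, and the ranges overlapped. Its log2 difference was -0.48 (SE 0.15, limma adjusted p = 0.0375), rising to 0.104 when cold day 4 replicate 2 was omitted and to 0.0511 without both cold libraries that stood apart. PRP40A, a U1-associated protein that bridges U1 and the branch site in yeast, was the best hit of 9 genes, of which 1 was called. That gene (TRINITY_DN14041_c1_g1, 325 bases) had 7.84 to 22.8 TPM at 20 °C and 3.28 to 6.70 TPM at 5 °C, separate ranges. Its log2 difference was -1.10 (SE 0.27, limma adjusted p = 0.0147; 0.0506 without cold day 4 replicate 2), and the other 8 PRP40A genes lay between -0.54 and 0.16. Summed over all 9, PRP40A differed by -0.34 and was not called (limma adjusted p = 0.0993).

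**Figure D2:**
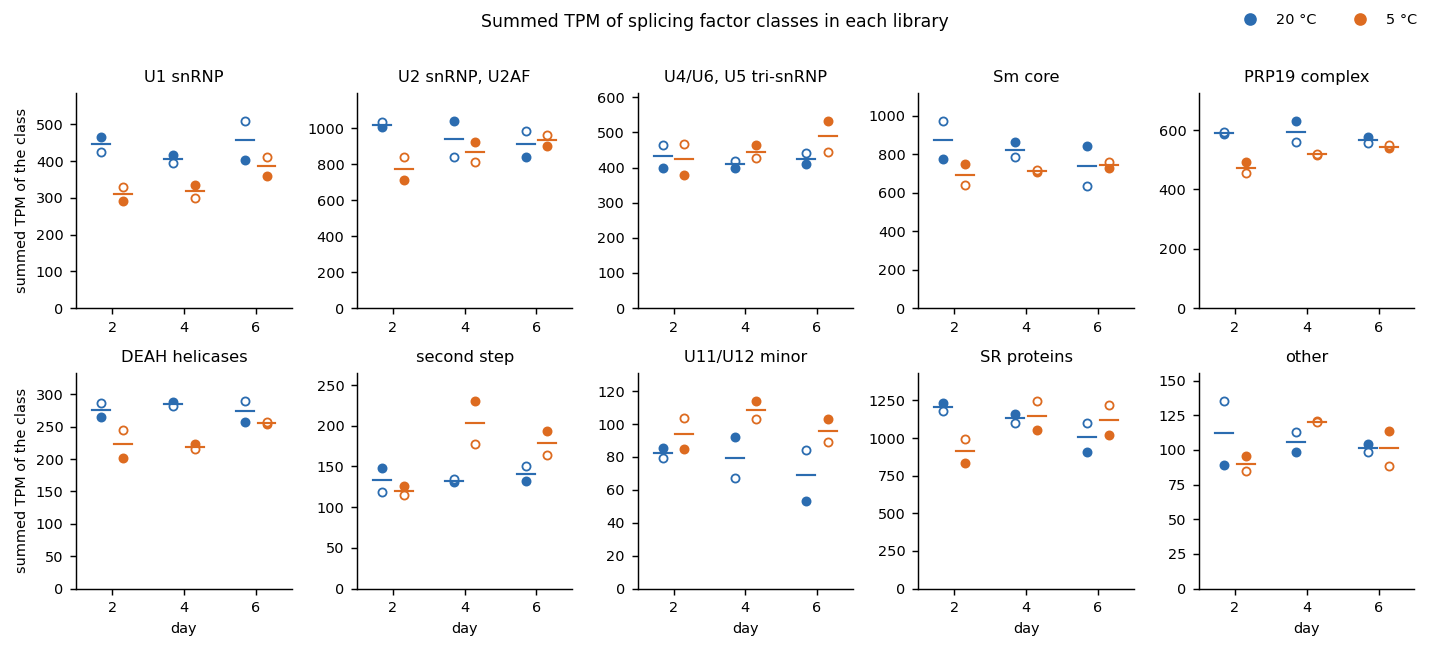
Summed TPM (vertical axes, from 0) of the genes of each class in the 12 libraries by day (horizontal axes), 20 °C in blue and 5 °C in orange; filled points are the lower and open points the higher replicate number of a group, and bars are group means. In these unscaled sums the U1 snRNP, PRP19 complex and DEAH helicases are lower in the cold on days 2 and 4, while U11/U12 has higher group means in the cold on each day.

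Recognition of the 3′ splice site and the branch site involves U2AF, the U2 snRNP and its SF3A and SF3B subunits. Of 27 tested genes, 2 were lower and none was higher, 7.41% called against 23.3% of all genes tested. The median log2 difference was -0.21, with sums of 958 ± 93.2 TPM in control and 859 ± 90.8 TPM in cold libraries (SD, n = 6 each). The homolog of U2AF35A (TRINITY_DN19403_c0_g1), the small U2AF subunit that reads the AG at the end of the intron, had 24.4 and 19.7 TPM on day 2, 21.1 and 16.3 TPM on day 4, and 20.4 and 28.8 TPM on day 6 at 20 °C. At 5 °C it had 8.38 and 7.94 TPM on day 2, 8.49 and 9.40 TPM on day 4, and 11.4 and 10.95 TPM on day 6. All cold values were below all control values and lay within a narrow range. The log2 difference was -1.12 (SE 0.17, limma adjusted p = 0.0021), called in each fit without 1 library. A second U2AF35A gene (TRINITY_DN19940_c0_g1) had -0.30 (SE 0.32, limma adjusted p = 0.51), and the sum of both fell by 0.82 on the log2 scale (limma adjusted p = 0.0118).

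SF3B3, a large subunit of the SF3B complex that holds U2 at the branch site, had 3 genes, of which 1 was called. It (sf3b3, TRINITY_DN23728_c0_g1) went from a median of 15.5 TPM (13.3 to 25.5) at 20 °C to 9.47 TPM (6.37 to 11.4) at 5 °C, with no overlap. The log2 difference was -0.82 (SE 0.20, limma adjusted p = 0.0149), called in each fit without 1 library, and the other two SF3B3 genes had -0.32 and -0.49. The most abundant gene of the class, an SF3B6-like homolog (At5g12190, TRINITY_DN12298_c0_g1), had 99.8 ± 19.8 TPM in control and 71.7 ± 14.0 TPM in cold libraries (SD, n = 6 each). Its difference of -0.47 (SE 0.17) was not called (limma adjusted p = 0.0629), and its day 6 difference was 0.02 (SE 0.29).

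Within the tri-snRNP of U4/U6 and U5, calls went both ways, with 2 higher and 3 lower of 16 tested genes (31.25%, against 23.3% of all genes tested). The median log2 difference was 0.02, with sums of 422 ± 26.1 TPM in control and 452 ± 50.5 TPM in cold libraries (SD, n = 6 each). PRP31, a U4/U6 protein needed for the tri-snRNP to form, had the largest rise of any splicing factor. Its gene TRINITY_DN32951_c0_g1 (2965 bases) had 11.5 and 0.80 TPM on day 2, 8.48 and 5.11 TPM on day 4, and 1.90 and 8.19 TPM on day 6 at 20 °C. At 5 °C it had 32.2 and 61.9 TPM on day 2, 38.7 and 68.4 TPM on day 4, and 64.7 and 13.5 TPM on day 6. Every cold value was above every control value, and the lowest was in cold day 6 replicate 3. The log2 difference was 2.88 (SE 0.53, limma adjusted p = 0.00456), called in each fit without 1 library.

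PRP31 had 4 genes in all. TRINITY_DN29464_c0_g1 was also higher, at 21.9 ± 3.07 TPM against 14.6 ± 2.08 TPM (SD, n = 6 each) with separate ranges, a log2 difference of 0.55 (SE 0.16) and a limma adjusted p of 0.0335 (0.0921 without control day 4 replicate 2, 0.058 without both cold libraries that stood apart). A more abundant PRP31 gene of the same numbered assembly cluster, TRINITY_DN29464_c1_g1 at 58.8 TPM, had a difference of 0.03. With all 4 genes summed, PRP31 rose by 0.58 on the log2 scale (limma adjusted p = 0.0113).

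PRP8A, the U5 protein at the catalytic centre of the spliceosome, had 4 genes, of which 2 were lower. TRINITY_DN12534_c0_g1 (568 bases) went from a median of 20.2 TPM (10.9 to 29.7) to 7.23 TPM (4.80 to 8.80), separate ranges, with a log2 difference of -1.29 (SE 0.24, limma adjusted p = 0.0053). TRINITY_DN26516_c0_g5 (7436 bases) went from 44.2 TPM (30.95 to 68.1) to 26.3 TPM (20.6 to 31.4), with a difference of -0.80 (SE 0.20, limma adjusted p = 0.0176; 0.0576 without cold day 6 replicate 2). The most abundant PRP8A gene, TRINITY_DN34821_c1_g1 at a mean of 55.9 TPM, had a difference of 0.10, and the sum of the 4 was not called (-0.35, limma adjusted p = 0.169). SNRNP40, a WD-repeat protein of U5, was the most abundant member of the class (TRINITY_DN15740_c0_g3), with 81.8 ± 17.5 TPM in control and 92.0 ± 22.3 TPM in cold libraries (SD, n = 6 each), and was not called (limma adjusted p = 0.544). A far weaker SNRNP40 gene (TRINITY_DN31934_c0_g6), chosen after its values were seen, was lower at 1.01 ± 0.982 TPM against 3.72 ± 1.43 TPM (log2 difference -1.30, SE 0.36, limma adjusted p = 0.0246; 0.0658 without cold day 4 replicate 1, 0.0655 without both cold libraries that stood apart).

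None of the 12 Sm core genes was called, against 23.3% of all genes tested. Their log2 differences ran from -0.41 to 0.27, with a median of -0.11. Sm proteins form the ring shared by the snRNPs, and their sums were 811 ± 113 TPM in control and 716 ± 42.9 TPM in cold libraries (SD, n = 6 each). The most abundant, an SNRPE homolog (TRINITY_DN17509_c0_g1), ranged from 99.4 to 264 TPM at 20 °C and from 121 to 168 TPM at 5 °C. Its difference of -0.11 (SE 0.26, limma adjusted p = 0.794) turned positive when control day 2 replicate 3 or control day 6 replicate 2, the highest control libraries, was left out.

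The PRP19 complex and its partners had 3 lower and 1 higher call among 17 tested genes, 23.5% called against 23.3% of all genes tested. Their median log2 difference was -0.31. Their sums in unscaled TPM did not overlap between temperatures, with 557 to 631 TPM at 20 °C and 454 to 549 TPM at 5 °C. The sums of 557 and 549 TPM came from control and cold day 6 replicate 3, with median ratio factors of 1.074 and 0.994. Division by these factors reverses their order, so the separation is lost with that scaling. The ISY1 homolog (TRINITY_DN25093_c0_g1), a PRP19-associated factor that acts around the first step of splicing in yeast, had 27.6 and 36.0 TPM on day 2, 34.6 and 33.5 TPM on day 4, and 22.5 and 24.8 TPM on day 6 at 20 °C. At 5 °C it had 14.8 and 20.0 TPM on day 2, 10.5 and 7.09 TPM on day 4, and 12.2 and 17.3 TPM on day 6. Its ranges were separate, with a log2 difference of -1.12 (SE 0.18, limma adjusted p = 0.00255) that was called in each fit without 1 library. The day 4 difference was -1.86 (SE 0.31, limma adjusted p = 0.0108).

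PRP19, the ubiquitin ligase after which the complex is named, had 4 genes hitting the rice entry and 1 hitting PRP19B of Arabidopsis. The PRP19B gene (TRINITY_DN34339_c1_g3, 546 bases) went from 64.2 ± 4.36 TPM to 35.9 ± 6.65 TPM (SD, n = 6 each), with separate ranges and a log2 difference of -0.84 (SE 0.16, limma adjusted p = 0.00575), called in each fit without 1 library. Its assembly neighbour TRINITY_DN34339_c1_g1 (2237 bases), a PRP19 gene with which it may share reads, went from 59.5 ± 5.73 TPM to 41.0 ± 6.16 TPM, also separate (-0.53, SE 0.15, limma adjusted p = 0.0276; 0.081 without cold day 6 replicate 2). This neighbour was called in 5 of the 12 fits without 1 library. Another PRP19 gene, TRINITY_DN16944_c0_g1 with a mean of 65.0 TPM, had a difference of -0.11, and the 4 PRP19 genes summed were not called (-0.32, limma adjusted p = 0.105).

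CWC22, which hands the exon junction complex to the spliceosome in human cells, was the higher gene of this class (TRINITY_DN25692_c0_g2). It had a median of 20.2 TPM (14.7 to 25.6) at 20 °C and 29.0 TPM (26.6 to 45.7) at 5 °C, separate ranges, with a log2 difference of 0.62 (SE 0.19, limma adjusted p = 0.0338; 0.0996 without cold day 6 replicate 2, its highest library). It was called in only 4 of the 12 fits without 1 library. The most abundant gene, a cwc-21 homolog (TRINITY_DN29517_c1_g1), had 65.6 ± 14.8 TPM in control and 92.2 ± 30.4 TPM in cold libraries (SD, n = 6 each). Its difference of 0.43 (SE 0.24) was not called (limma adjusted p = 0.21).

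**Figure D3:**
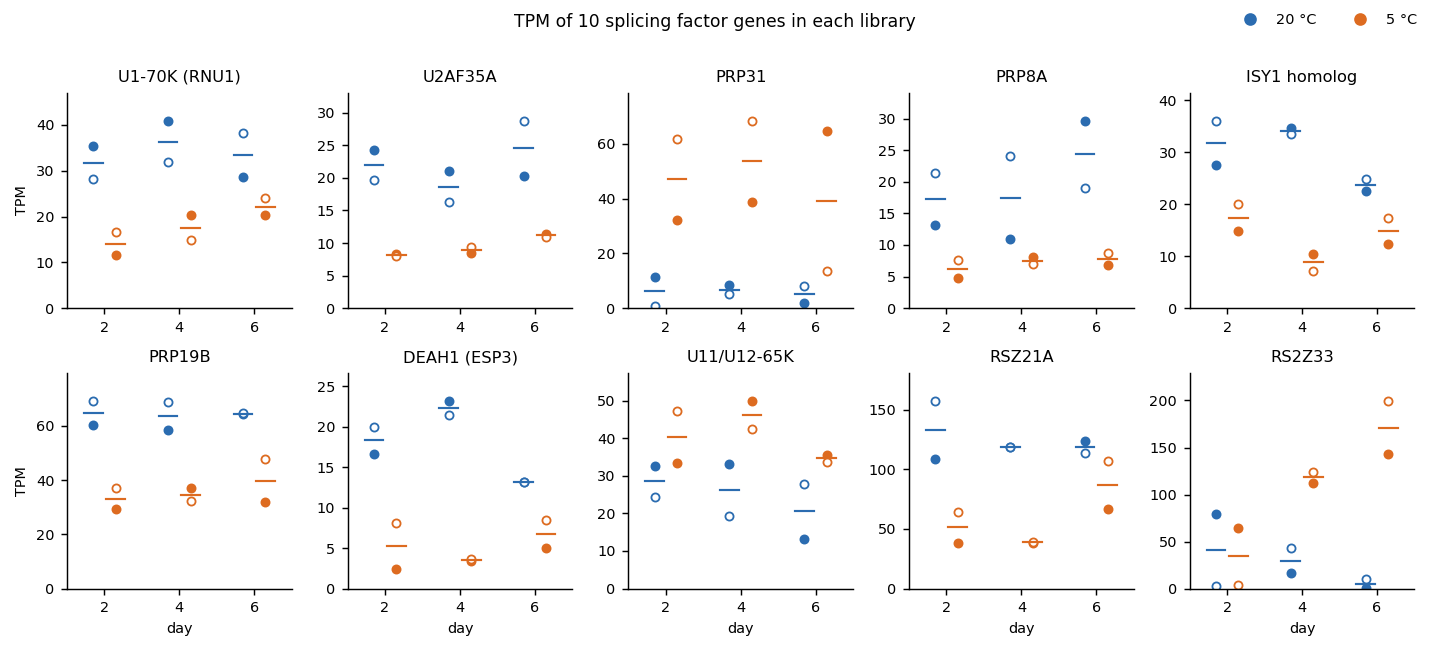
TPM (vertical axes, from 0) of 10 named splicing factor genes in the 12 libraries by day (horizontal axes), 20 °C in blue and 5 °C in orange; filled points are the lower and open points the higher replicate number of a group, and bars are group means. U1-70K, U2AF35A, PRP8A, ISY1, PRP19B, DEAH1 and RSZ21A have all cold values below all control values, PRP31 and U11/U12-65K have them above, and RS2Z33 overlaps.

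DEAH-box helicases, the motors of spliceosome remodelling, had 3 lower and 1 higher call among 18 tested genes, 22.2% called against 23.3% of all genes tested. Their median log2 difference was -0.29. Their sums in unscaled TPM did not overlap, with 258 to 289 TPM at 20 °C and 202 to 257 TPM at 5 °C. Control day 2 replicate 1 had 265 TPM and a median ratio factor of 1.063, and cold day 6 replicate 3 had 257 TPM and 0.994. Division by these factors reverses their order, so this separation is also lost with that scaling. DEAH1 (ESP3, TRINITY_DN27551_c0_g1), the Arabidopsis entry related to the activating helicase PRP2, had the lowest p of all splicing factors. At 20 °C it had 16.6 and 20.0 TPM on day 2, 23.1 and 21.5 TPM on day 4, and 13.1 TPM in both libraries on day 6. At 5 °C it had 2.44 and 8.10 TPM on day 2, 3.36 and 3.63 TPM on day 4, and 4.96 and 8.40 TPM on day 6. All cold values were below all control values, and the gap was widest on day 4. The log2 difference was -1.69 (SE 0.25, limma adjusted p = 0.00191), called in each fit without 1 library, and -2.37 on day 4 (SE 0.43, limma adjusted p = 0.014). The other two DEAH1 genes had -0.01 and -0.11, and the sum of the 3 fell by 0.59 on the log2 scale (limma adjusted p = 0.0378).

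DEAH7 (CUV), the homolog of the second-step helicase PRP16, had 5 genes, all with negative differences, of which 2 were called. The more abundant called gene (TRINITY_DN35539_c1_g2, 238 bases) went from a median of 47.9 TPM (39.2 to 53.2) to 30.02 TPM (19.5 to 38.2), separate ranges (log2 difference -0.67, SE 0.19, limma adjusted p = 0.0286). This gene was called in 5 of the 12 fits without 1 library. Omitting cold day 4 replicate 2 gave an adjusted p of 0.0801 and omitting both cold libraries that stood apart one of 0.0836, and that of the summed 5 genes was 0.0167, at -0.61. The other called gene (TRINITY_DN23560_c0_g2), chosen after its values were seen, was low, 3.73 ± 1.99 TPM at 20 °C and 0.885 ± 1.07 TPM at 5 °C (SD, n = 6 each), with 2 cold libraries listed at 0. Its difference was -1.39 (SE 0.38, limma adjusted p = 0.0233; 0.0676 without cold day 6 replicate 2), called in 6 of the 12 fits without 1 library.

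DEAH4 (At1g27900, TRINITY_DN16269_c0_g1) was the higher gene of the class, with 6.72 ± 1.90 TPM in control and 12.6 ± 4.84 TPM in cold libraries (SD, n = 6 each). The ranges overlapped, and the log2 difference was 0.78 (SE 0.23, limma adjusted p = 0.0299; 0.0906 without cold day 6 replicate 2, 0.0513 without both cold libraries that stood apart). DEAH4 was called in only 4 of the 12 fits without 1 library. The most abundant helicase gene, DEAH2 (At3g62310, TRINITY_DN33945_c0_g1), related to the spliceosome release helicase PRP43, had 51.7 ± 3.84 TPM in control and 40.7 ± 8.54 TPM in cold libraries. Its difference of -0.36 (SE 0.14) was not called (limma adjusted p = 0.0885).

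Second-step factors comprised 4 genes, 1 of them called, higher in the cold (25%, against 23.3% of all genes tested called either way). Their sums were 136 ± 11.8 TPM in control and 168 ± 43.0 TPM in cold libraries (SD, n = 6 each). On day 2 the cold sums of 126 and 114 TPM lay near the controls (148 and 118 TPM), and on day 4 they were 230 and 178 TPM against 131 and 134 TPM. SLU7, which docks the 3′ splice site, was matched by a gene hitting the rice entry (TRINITY_DN31096_c0_g3), with a median of 45.9 TPM (35.8 to 53.0) at 20 °C and 70.8 TPM (44.0 to 85.0) at 5 °C. Its log2 difference was 0.51 (SE 0.16, limma adjusted p = 0.0385; 0.097 without control day 2 replicate 3, 0.0585 without both cold libraries that stood apart). SLU7-A (At1g65660, TRINITY_DN26673_c0_g2), slightly more abundant, had a difference of 0.10 (SE 0.17, limma adjusted p = 0.683).

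The minor spliceosome had 2 higher and no lower call among 8 tested genes, 25% called against 23.3% of all genes tested. Its median log2 difference was 0.10. Its sums were 76.9 ± 14.4 TPM in control and 99.4 ± 10.8 TPM in cold libraries (SD, n = 6 each), and the ranges overlapped. The U11/U12-65K homolog (SNRNP65, TRINITY_DN27589_c1_g1), which links U11 to U12, made up the largest share. At 20 °C it had 32.7 and 24.4 TPM on day 2, 33.2 and 19.3 TPM on day 4, and 13.3 and 27.8 TPM on day 6. At 5 °C it had 33.5 and 47.2 TPM on day 2, 49.8 and 42.4 TPM on day 4, and 35.6 and 33.8 TPM on day 6. The lowest cold value lay just above the highest control value. Its log2 difference was 0.71 (SE 0.22, limma adjusted p = 0.0387; 0.106 without control day 4 replicate 2, 0.131 without both cold libraries that stood apart).

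The U11/U12-25K homolog (SNRNP25, TRINITY_DN28215_c1_g3) was low but separate, 1.08 to 2.73 TPM at 20 °C and 3.19 to 9.62 TPM at 5 °C. Its log2 difference was 1.0 (SE 0.29, limma adjusted p = 0.0285; 0.0884 without cold day 6 replicate 2), and a more abundant gene with the same hit (TRINITY_DN19613_c1_g2, mean 9.58 TPM) had -0.07. The other six minor spliceosome genes, among them those for the 35, 48, 59 and 31 kDa proteins, lay between -0.07 and 0.43.

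SR proteins formed, with the U2 class, the largest class and had the most calls, 2 higher and 7 lower of 27 tested genes. Of the SR genes 33.3% were called, against 23.3% of all genes tested. Their sums of 1113 ± 114 TPM in control and 1061 ± 152 TPM in cold libraries (SD, n = 6 each) overlapped, and their median log2 difference was -0.19. RSZ21A (TRINITY_DN27797_c2_g5), an SR protein with a zinc knuckle named from rice, had 108 and 157 TPM on day 2, 119 TPM in both libraries on day 4, and 124 and 114 TPM on day 6 at 20 °C. At 5 °C it had 38.3 and 64.4 TPM on day 2, 38.4 and 39.3 TPM on day 4, and 66.9 and 107 TPM on day 6. The cold values were all lower, though that of cold day 6 replicate 3 came within 2 TPM of the lowest control value. The log2 difference was -1.15 (SE 0.19, limma adjusted p = 0.0032), called in each fit without 1 library, and -1.59 on day 4 (SE 0.33, limma adjusted p = 0.0208). A gene of the same assembly component that hits RSZ22 (TRINITY_DN27797_c2_g4), with which it may share reads, had 0.29 (SE 0.20, limma adjusted p = 0.308).

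RS41, an SR protein of a plant-specific subfamily, was the only hit with genes called in both directions. TRINITY_DN19480_c0_g2 (1380 bases) went from a median of 70.2 TPM (45.2 to 77.3) to 31.7 TPM (18.5 to 42.7), separate ranges, with a log2 difference of -1.04 (SE 0.19, limma adjusted p = 0.0047), and it was also lower on day 4 (-1.33, SE 0.33, limma adjusted p = 0.0346). TRINITY_DN12737_c0_g2, a fragment of 314 bases, went from 4.41 TPM (1.89 to 7.39) to 8.63 TPM (3.41 to 16.4), overlapping ranges, with 0.93 (SE 0.27, limma adjusted p = 0.0281; 0.0788 without control day 4 replicate 2, 0.0796 without both cold libraries that stood apart). The fragment was called in 6 of the 12 fits without 1 library. The most abundant RS41 gene, TRINITY_DN34644_c1_g1 at a mean of 124 TPM, had -0.02. Summed, RS41 differed by -0.24 and was not called (limma adjusted p = 0.293).

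RS2Z33, another zinc-knuckle SR protein of plants (TRINITY_DN30855_c1_g2), was the most variable called gene. At 20 °C it had 78.9 and 3.0 TPM on day 2, 16.2 and 43.0 TPM on day 4, and 0.89 and 9.63 TPM on day 6. At 5 °C it had 64.5 and 3.71 TPM on day 2, 113 and 124 TPM on day 4, and 143 and 199 TPM on day 6. On day 2 each temperature had 1 high and 1 low library, replicate 1 being the high and replicate 3 the low one at both. Whether this gene follows the replicate number was not tested. On days 4 and 6 both cold values were above both control values. The mean log2 difference was 2.44 (SE 0.79, limma adjusted p = 0.0455; 0.116 without cold day 2 replicate 1, 0.0522 without both cold libraries that stood apart), made of -0.03, 2.11 and 5.24 on days 2, 4 and 6, none of which was called alone. RS2Z33 was called in only 3 of the 12 fits without 1 library. A test that the 3 differences were equal gave an unadjusted p of 0.0569.

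SCL30A (TRINITY_DN30956_c0_g2), an SC35-like protein, was lower, at a median of 6.31 TPM (5.19 to 9.11) against 14.6 TPM (11.04 to 31.4), with separate ranges (log2 difference -1.08, SE 0.27, limma adjusted p = 0.0175; 0.0582 without cold day 6 replicate 2). It was called in 10 of the 12 fits without 1 library. The other four lower SR genes, chosen after their values were seen, were SR34A, RSZ21 and 2 genes hitting SCL28, with log2 differences of -0.92, -0.68, -0.82 and -0.70. The RSZ21 gene (TRINITY_DN17559_c0_g3) had overlapping ranges and a limma adjusted p of 0.0267, called in 8 of the 12 fits without 1 library (0.079 without cold day 6 replicate 2) and not without both cold libraries that stood apart (0.0608). The less abundant SCL28 gene (TRINITY_DN22166_c2_g4) had 0.0273 and was called in 5 of the 12 fits (0.0815 when cold day 6 replicate 2 was omitted). In this group SR34A (TRINITY_DN29704_c0_g1) was also called on day 4, at -1.32 (SE 0.34, limma adjusted p = 0.0398). Both SCL28 genes had separate ranges, 34.5 to 49.7 TPM against 16.6 to 30.4 TPM and 15.1 to 21.2 TPM against 8.55 to 14.9 TPM. The most abundant SR gene, RS2Z32 (TRINITY_DN19755_c0_g1), had 110 ± 18.8 TPM in control and 142 ± 46.3 TPM in cold libraries and was not called (limma adjusted p = 0.239). Genes for SR30, SR45, SR45a, SCL33, SC35, RS31, RSZ22 and SR34, well-known plant SR proteins, were not called either.

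The remaining 5 genes, 4 hitting SRL1 and 1 hitting the survival of motor neuron-related splicing factor 30 (smndc1), gave no call. The smndc1 gene (TRINITY_DN20888_c0_g1), the most abundant of them, had 43.9 ± 3.23 TPM in control and 32.4 ± 8.65 TPM in cold libraries (SD, n = 6 each), a log2 difference of -0.47 (SE 0.18, limma adjusted p = 0.074).

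**Figure D4:**
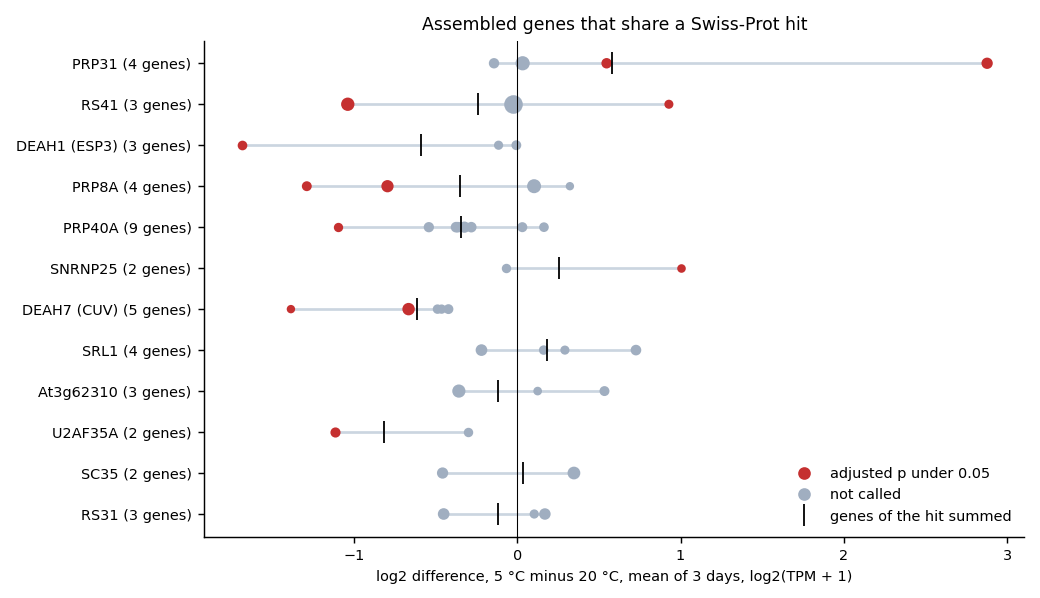
Log2 differences (5 °C minus 20 °C, mean of 3 days, log2(TPM + 1), horizontal axis) of genes that share a Swiss-Prot hit, for the 12 hits with the widest spread; point area grows with mean TPM, red marks an adjusted p under 0.05 and the black tick is the value with the genes summed. PRP31 spans -0.14 to 2.88, and RS41 alone has red points on both sides of 0.

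Genes sharing a hit had like log2 differences in some hits and unequal ones in others. Of the 91 hits, 37 had several genes. The narrowest span was 0.03, for the U2 protein A′ (At1g09760), and the widest was that of PRP31, from -0.14 to 2.88. Only RS41 had genes called in both directions. The assembly does not say whether such genes are copies of a duplicated genome, fragments or splice forms, and how reads were divided between them is unknown. Transcript number per gene was compared within lengths of 1000 to 2000 bases. Splicing factors had a median of 8.5 assembled transcripts (58 genes), genes with any Swiss-Prot hit 7 (7635 genes), and SR protein genes 12, from 6 to 23 (12 genes). SR genes of plants are known for extensive alternative splicing of their own transcripts, and gene-level TPM does not show which forms changed.

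Day by day, few splicing factors passed the test. On day 2, 1 was lower, U2AF35A (-1.32, SE 0.29, limma adjusted p = 0.0485), and 0 were higher, against 0.287% lower and 1.48% higher over all genes tested. With any single library other than cold day 2 replicate 3 left out, 0 were lower on day 2. On day 4, 6 were lower, DEAH1, ISY1, RSZ21A, RS41, SR34A and U1-70K, and 0 were higher, against 4.3% and 4.07%. Without 1 of the 4 control or cold libraries of day 4, 0 were lower. On day 6 no splicing factor was called in either direction, against 0.318% higher and 0.166% lower.

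At an unadjusted limma p under 0.05, 3 splicing factors were higher and 32 lower on day 2, 5 higher and 26 lower on day 4, and 10 higher and 16 lower on day 6. At that threshold 1.94%, 3.23% and 6.45% of the members were higher on days 2, 4 and 6. The background for higher genes was 11.2% on day 2, 11.8% on day 4 and 8.59% on day 6. For lower genes it was 7.21% on day 2, 15.8% on day 4 and 8.95% on day 6, against 20.6%, 16.8% and 10.3% of the members, so the lower count of day 4 was near the background. The members' median log2 difference was -0.27 on day 2, -0.12 on day 4 and -0.03 on day 6, while the medians of all genes were 0.003, -0.16 and -0.03. The day 2 median of the members lay below 0 under both other scalings (-0.26 and -0.31). Of 155 genes, 113 lay below 0 on day 2 in the main fit, 112 with median ratio scaling and 111 with quantile normalization. On day 4 the members' median was 0.03 with median ratio scaling, so no direction can be given there. With both cold libraries that stood apart left out, the day 2 median was -0.33.

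**Figure D5:**
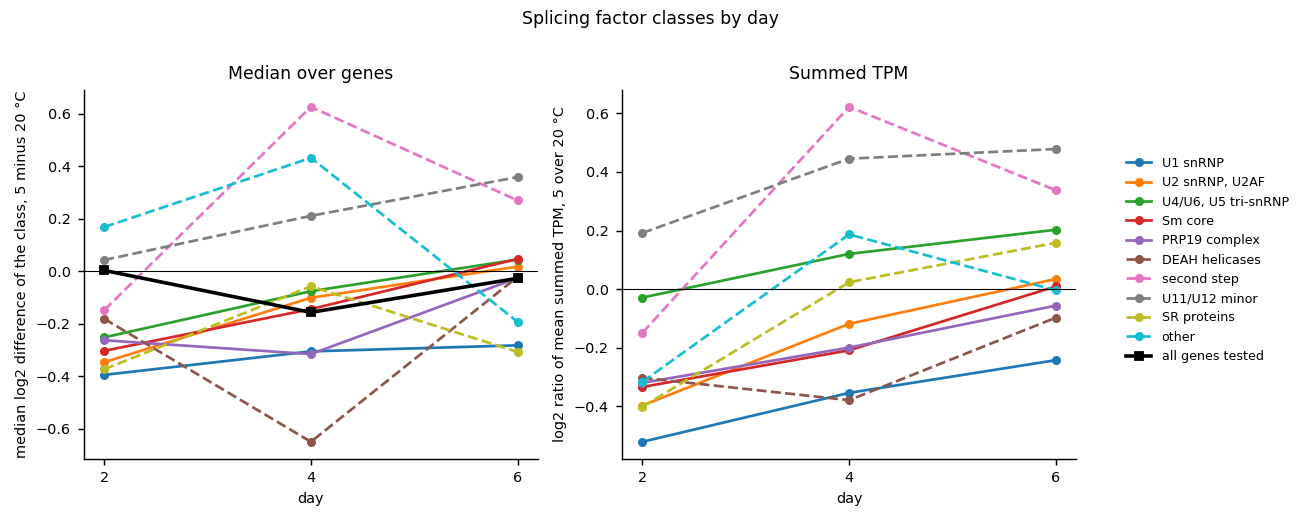
Median log2 difference of the genes of each class (left) and log2 ratio of mean summed TPM (right), 5 °C against 20 °C, by day (horizontal axis), with the median of all genes tested in black on the left. The U1 snRNP lies below 0 on each day, at -0.39, -0.30 and -0.28 on the left, while U11/U12 lies above 0 on each day, although its day 2 median was -0.005 with quantile normalization and -0.06 without both cold libraries that stood apart.

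A difference in the cold effect between days was not called for any splicing factor (0 by the limma F test, against 0.0157% of all genes). At an unadjusted p under 0.05 there were 8 members (5.16%), below the background of 9.49%. For change over days in the cold, 0 members were called, against 0.601%, with 18 (11.6%) at an unadjusted p under 0.05, below the background of 18.4%. For change over days at 20 °C, 0 were called, against 0%, with 0 members at an unadjusted p under 0.05 against 3.67%. In summed TPM the splicing factors stood at 3965 and 4268 TPM in the cold libraries of day 2, 4689 and 4637 TPM on day 4 and 4750 and 4942 TPM on day 6. The control sums were 5052 and 5291 TPM, 5123 and 4697 TPM, and 4522 and 4849 TPM on the same days. The groups were apart on day 2 and overlapped on day 6. On day 4 they were barely apart, at 4697 TPM in control replicate 2 and 4689 TPM in cold replicate 1. These libraries had median ratio factors of 1.051 and 0.966, and division by them reverses the order, so no direction can be given for day 4.

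The genes whose pattern over the 12 libraries was most like that of DEAH1, the called member with the lowest p, were RSZ21A (Pearson r = 0.933 on log2(TPM + 1)), PRP19B (r = 0.928) and ISY1 (r = 0.916). All 4 share the same libraries and were called lower in the cold, so these values are a description.

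Genes that work with the spliceosome but lie outside the rule were read from word lists. The background for the counts of these lists is 11.3% higher and 12% lower over all genes tested. Of 38 hnRNP and polypyrimidine tract-binding (PTB) genes, RNA-binding proteins that often oppose SR proteins, 5 were higher and 2 lower. A PTB homolog 1 gene (TRINITY_DN32251_c0_g1) went from 7.11 ± 1.17 TPM to 15.3 ± 2.54 TPM (SD, n = 6 each), separate ranges (log2 difference 1.01, SE 0.17, limma adjusted p = 0.00343). A second (TRINITY_DN27038_c0_g3) went from 13.9 ± 4.40 TPM to 31.8 ± 16.9 TPM, overlapping (1.05, SE 0.25, limma adjusted p = 0.0146). The lower count was 0 without cold day 6 replicate 2, 4 without control day 6 replicate 3, and 1 with any other single library omitted except control day 2 replicate 1, cold day 2 replicate 3 and cold day 6 replicate 3.

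SR protein kinases, which phosphorylate SR proteins, had 2 higher and 3 lower genes of 15. AFC1 (TRINITY_DN26723_c0_g2) went from 2.77 ± 0.939 TPM to 6.78 ± 1.74 TPM (SD, n = 6 each), separate ranges (1.06, SE 0.25, limma adjusted p = 0.0143), and an SRPK gene (TRINITY_DN18019_c0_g1) from 31.4 ± 16.0 TPM to 61.9 ± 21.6 TPM (1.02, SE 0.32, limma adjusted p = 0.0392). The lower ones were 2 AFC2 genes and a PRP4 kinase gene, named after their values were seen, at -0.97, -0.65 and -0.60. The other 3 AFC1 genes, each more abundant than the called one, had 0.50, 0.21 and 0.27, and the other 6 AFC2 genes lay between -0.47 and 0.48, none of them called. Without cold day 6 replicate 2, 0 of the list were higher and 1 was lower. The higher count was 1 with any other library omitted except control day 2 replicate 1, control day 6 replicate 3 and cold day 6 replicate 3. The lower count was also 1 when control day 2 replicate 1, control day 4 replicate 1 or 2, control day 6 replicate 3, cold day 2 replicate 1 or cold day 4 replicate 1 or 2 was omitted.

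Of 10 other spliceosome partners, 3 were lower and none higher. They were a fragment of 404 bases hitting the lariat debranching enzyme DBR1 (TRINITY_DN33343_c0_g4, -1.15, SE 0.38, limma adjusted p = 0.0478), the PRP19-associated SKIP (TRINITY_DN32473_c0_g1) and, named after its values were seen, the PRP6-like protein STABILIZED1 (-0.76), a factor known from Arabidopsis mutants sensitive to cold. The called DBR1 gene had 15.4 TPM in control day 4 replicate 1 and 3.46 to 7.53 TPM in the other control libraries, and the longer DBR1 gene (TRINITY_DN21026_c1_g4, 2291 bases) had a difference of 0.09 (SE 0.19) and was not called. Likewise a more abundant STABILIZED1 gene (TRINITY_DN26975_c0_g1), with 32.3 TPM at 20 °C and 31.6 TPM at 5 °C, had -0.02 and was not called. SKIP went from 50.8 ± 5.69 TPM to 28.6 ± 6.41 TPM (SD, n = 6 each), with separate ranges (-0.83, SE 0.16, limma adjusted p = 0.00557). The count was 1 without control day 6 replicate 3, cold day 2 replicate 1, cold day 4 replicate 2 or cold day 6 replicate 2.

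Both genes for PRMT5, the methyltransferase that modifies Sm proteins, were lower, at -0.69 (TRINITY_DN33836_c0_g3, SE 0.21, limma adjusted p = 0.038) and -0.54 (TRINITY_DN33557_c1_g2, SE 0.18, limma adjusted p = 0.0482). Of them 1 was called without control day 2 replicate 1, both without cold day 2 replicate 3, and 0 without any other single library. Of 8 exon junction complex genes, a mago nashi homolog (TRINITY_DN28292_c0_g1) was higher (0.88, SE 0.25, limma adjusted p = 0.0279) and the Y14-mago partner PYM (TRINITY_DN15403_c0_g5) lower (-1.18, SE 0.22, limma adjusted p = 0.00485). The other genes with these hits were not called. They were 3 mago nashi genes of the same assembly component, at 0.23, 0.03 and -0.47, the last a fragment of 202 bases with 472 TPM in control and 340.3 TPM in cold libraries against 3.33 and 7.28 TPM for the called gene, and a PYM gene (pym1b, TRINITY_DN15403_c0_g1) at 32.8 and 32.2 TPM, with -0.02. The mago call was lost without control day 4 replicate 2, control day 6 replicate 2, cold day 2 replicate 3, cold day 4 replicate 1 or 2, or cold day 6 replicate 2. None of 12 LSm genes (Sm-like proteins, among them those of the U6 ring), 3 cap-binding genes or 8 organelle intron splicing genes was called. Their medians were -0.19, -0.19 and -0.23. However, 1 LSm gene was lower without control day 6 replicate 2, cold day 2 replicate 3 or cold day 6 replicate 3, and 1 organelle gene without cold day 2 replicate 3.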

How the data were processed

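The deposited table holds TPM per assembled gene, made by the authors. No header names the unit, which was read from the values. Genes carry Trinity identifiers, a length and protein annotation, per the file headers. The submitters' processing notes name cutadapt, FastQC, Salmon and edgeR, with roles and versions not given in the sources used here. No counts are held, so the depth of the libraries, and with it the counting error, is unknown. No genome entered the work.

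The scale was log2(TPM + 1), which understates changes of low genes. Those reaching 1 TPM in 2 or more libraries (44600 of 44953) were fitted with limma 3.58.1 (variance trend, R 4.3.3, data.table version 1.17.8) to the 6 groups, without added scaling between libraries, and p-values were Benjamini-Hochberg adjusted over all 44600 genes at a false discovery rate of 0.05. The tests were the mean of the 3 daily differences, each day, the day by temperature F test and the change over days at each temperature. The fit was tested on simulated data. Tables and figures were made with python 3.11.15, pandas 2.3.3 and matplotlib 3.10.9. Classes were assigned by words in the Swiss-Prot description, and symbols are best hits. Genes named are, per class, the most abundant member and up to 3 called rises and 3 called falls with at least 5 TPM in the higher arm; those called on a day; the rows of a hit called both ways; up to 2 called genes of each related list; and the 3 genes most like the called member with the lowest p. The members and lists were chosen with earlier results of these data known. Alternatives were another pseudocount, other filters, median ratio and quantile scaling, the replicate number as a block, genes summed by hit, and libraries left out. Applying them to the related lists was chosen after seeing the data.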

Additional observations from a re-analysis of the deposited data

Results flagged for a closer look

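In 86 sets of 6 values, 1 set per temperature for each splicing factor named by rule and each class sum, a library whose gap to its nearest neighbour was large against the range of its set was found 4 times, and chance gives about 1 in 20. These were RSZ21A in control day 2 replicate 3, at 157 TPM, SCL30A in control day 2 replicate 1, at 31.4 TPM, CWC22 in cold day 6 replicate 2, at 45.7 TPM, and RS2Z32 in cold day 4 replicate 2, at 235 TPM.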

How the results depend on the processing

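For the mean difference, 9 members were higher and 23 lower. Both counts stayed within 1.5 times with another pseudocount (8 and 23), no filter (9 and 23), a mean of at least 5 TPM (7 and 22), median ratio scaling (10 and 22), quantile normalization (8 and 26) and members of at least 300 bases (9 and 22). With genes summed by hit, 5 hits were higher and 18 lower, and with both cold libraries that stood apart left out 3 were higher and 19 lower. Leaving out 1 library gave 1 to 10 higher and 13 to 23 lower.

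The day 2 lower count of 1 became 0 with log2(TPM + 0.1), with the replicate block and without both cold libraries, and 2 with quantile normalization, and was 0 to 1 with 1 library left out, as was the higher count. On day 4 the higher count became 1 with a mean of at least 5 TPM, median ratio scaling or quantile normalization, and ranged from 0 to 1 with 1 library left out, the lower count from 0 to 7. The day 6 higher count ranged from 0 to 1. Change over days in the cold was called for 1 hit when genes were summed. The sign turned for the small RS41 gene when summed by hit (-0.24), for SNRPE without control day 2 replicate 3 (0.083) or control day 6 replicate 2 (from -0.34 to 0.13 over single libraries left out), and for SLU7-A without cold day 4 replicate 1 (from -0.00613 to 0.21). The cause was not tested. The class sums were rerun only with median ratio scaling and with single libraries left out, and none moved by more than its spread. Leaving out 1 of 6 values can hardly shift a mean by that much, and nor can scaling factors of 0.909 to 1.093, so neither tests the sums. With those factors the PRP19 complex and DEAH helicase sums no longer have separate ranges. The sums were not rerun without both cold libraries that stood apart.

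Libraries of different temperature share replicate numbers, but same-numbered libraries did not deviate together across all genes tested (r = -0.188, 0.007 and -0.012 on days 2, 4 and 6). The numbers were therefore not read as pairs, although single genes such as RS2Z33 on day 2 had like values in same-numbered libraries. With the replicate number as a block, 6 members were higher and 22 lower, and 27 of the 32 called members were still called. With 2 libraries a group and no read counts, differences on a single day were poorly resolved, and genes of low TPM understate their change.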
